A study of Mus musculus with 12 samples.

Results

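The genes described here encode lysosomal proteases, lipases and their cofactors: 34 genes of the deposited table of 55487. They were chosen by their function, at a time when earlier results of these data were known. They comprise 9 cysteine cathepsins, 6 other proteases and peptidases, 5 inhibitors, activators and cofactors, 10 lipid hydrolases and cholesterol carriers, and 4 phosphatases and nucleases. Hippocampal RNA was sequenced from 6 wild-type (WT) mice and 6 mice deficient in the transcription factor USF-1 (USF-1 KO), all of the strain C57Bl/6JRccHsd and 3 to 4 months old, with 1 library per mouse and no treatment named in the labels. Both genotypes came from matings of heterozygous USF-1 deficient mice, and the deficiency affected the whole animal rather than a single cell type. By the labels 4 WT mice were female (WT 1 to WT 4) and 2 male (WT 5 and WT 6), whereas 2 USF-1 KO mice were female (KO 1 and KO 2) and 4 male (KO 3 to KO 6), so that sex was spread unequally over the genotypes. The legend of the study gives an equal split of the sexes instead, which bears on each value by sex below, and the labels were used here. Mice are numbered in the order of their deposition. The comparison of the genotypes asks which of these transcripts differ in a hippocampus without USF-1.

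Lysosomes are acidic organelles in which proteins, lipids, nucleic acids and sugars taken up by endocytosis or autophagy are broken down. Their proteases are made as inactive precursors and become active in the acidic lumen. Inhibitors such as cystatins, which are not confined to the lysosome, as well as activator proteins and lipid transporters bear on how far substrates are degraded. Inherited loss of several of these enzymes leads to storage disease of the brain, among them the neuronal ceroid lipofuscinoses. In the brain many of these transcripts are high in microglia, while some are also abundant in neurons, astrocytes or the choroid plexus. USF-1 binds the E-box CACGTG, a motif that also forms the core of the binding sites of the lysosomal regulators TFEB and TFE3.

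The deposited values are normalised counts, that is, reads per gene scaled by a size factor for each library. The depth ranged from 21679622 to 32091173 reads on genes per library. The targeted gene, Usf1, had 141, 138, 117, 163, 148 and 138 normalised counts in KO 1 to KO 6 and 1505, 1579, 1583, 1519.8, 842 and 1425 in WT 1 to WT 6, so that each USF-1 KO library lay below each WT library, with WT 5 the lowest WT mouse by far. A pair of WT libraries stood apart. The summed choroid plexus markers (Ttr, Kl, Folr1 and 6 others) were at 928 to 2866 normalised counts in 10 of the mice, but at 59161 in WT 1 and at 165904 in WT 5, and none of the 9 markers was at 0. The log2 fold changes of the tested genes and the medians of the lists are therefore also given without WT 1 and WT 5, a choice made after the values had been seen. In whole tissue, fewer cells of a type and less RNA per cell cannot be told apart.

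All 34 genes had reads, and their levels in WT mice spanned more than 3 orders of magnitude when expressed per kb of annotated exons. This length counts each base in any annotated exon of a gene and can exceed that of the transcripts present. The order of the genes therefore also depends on the annotation. Cst3, the secreted inhibitor cystatin C, was the highest at 15054 ± 677 normalised counts per kb (SD, n = 6), closely followed by Psap, the precursor of the saposins that present sphingolipids to their hydrolases, at 14780.3 ± 1117. The difference between these neighbours was smaller than their spread. Pld3, an exonuclease of the phospholipase D family, stood at 4616 ± 461 normalised counts per kb. The highest proteases by this measure were Ctsb at 2038 ± 87.9 and Ctsd at 2018 ± 292 normalised counts per kb, which lay within each other's SD. Their annotated exons came to 6051 bases for Ctsb and 2351 for Ctsd. Lgmn, Ctss and Smpd1 came next, at 1041 ± 69.3, 919 ± 87.7 and 791 ± 60.1 normalised counts per kb. At the lower end were Ctsh, Ctsc, Ctsk and Dnase2a, with 45.9 ± 7.96, 43.9 ± 10.3, 33.8 ± 5.83 and 14.3 ± 0.919 normalised counts per kb. Acp5, the tartrate-resistant acid phosphatase of osteoclasts and some macrophages, was the lowest at 5.28 ± 2.37 per kb. Its normalised counts were 5.16 to 20.2 in the 12 mice, a mean below the limit of 10, and it is the 1 gene of the 34 that was not tested. Together the 34 genes took 0.479% ± 0.0198 (SD, n = 6) of all reads counted in WT mice, whereas USF-1 KO mice had 0.460% ± 0.0185 (SD, n = 6), with overlapping ranges.

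**Figure D1:**
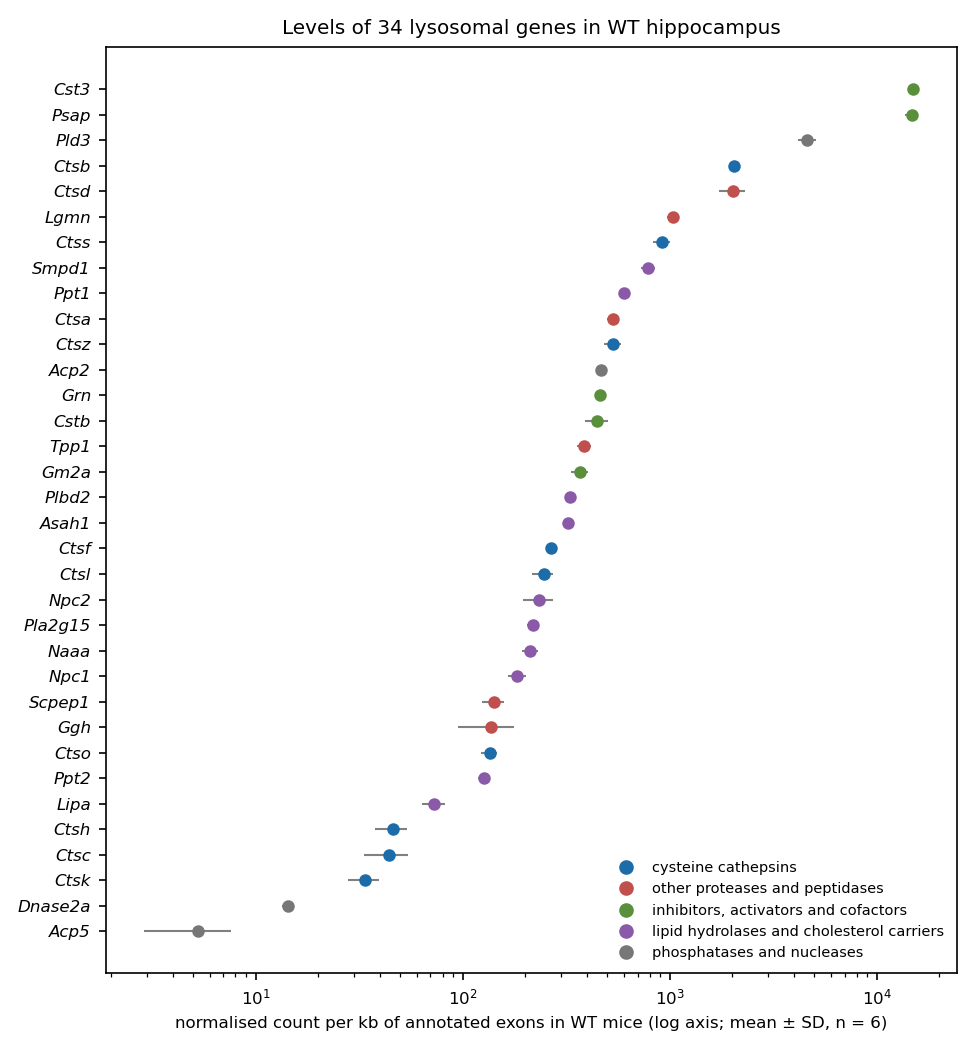
Mean normalised count per kb of annotated exons in the 6 WT mice, on a log axis, for each of the 34 genes; bars are the SD and colours mark the role of the gene. Cst3 and Psap lie above all other genes, and Acp5 at 5.28 per kb is the lowest.

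In the USF-1 KO hippocampus the transcripts of 2 of the 33 tested genes, Tpp1 and Ctsa, were lower than in WT mice, and those of none were higher at an adjusted p under 0.05 (limma on log2(normalised count + 1), two-sided, Benjamini-Hochberg over 18221 genes). Tpp1, which encodes tripeptidyl peptidase, fell by 27.5%, and Ctsa, the carboxypeptidase cathepsin A, fell by 15.3%. Over all tested genes 0.900% passed this threshold, 0.741% lower and 0.159% higher in USF-1 KO mice. For the 0 genes that were higher, 1 (Ppt1) had an unadjusted p under 0.05 in limma, edgeR called none and DESeq2 called Ppt1. The fitted log2 fold change was below 0 for 28 of the 33 genes, against 50.2% of all tested genes, and its median was −0.15 against −0.00 over all tested genes. An unadjusted p under 0.05 was reached by 14 genes that were lower and 1 that was higher, where the shares over all tested genes were 7.60% and 5.92%. Most differences were small: for 29 of the 33 genes the log2 fold change was smaller than 0.3 in size.

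These counts moved with the libraries and the tool. Without WT 1 and WT 5 the threshold was passed by Tpp1 alone, with 0.325% of all genes called. The median log2 fold change of the 33 genes was then −0.07, and 27 of 33 lay below 0. The median and the share below 0 over all genes were not taken for this fit. All 15 genes with an unadjusted p under 0.05 kept their sign there, with log2 fold changes that included −0.14 for Ctsb, −0.20 for Ctsh, −0.34 for Ctsk, −0.21 for Cstb and −0.12 for Asah1. The medians by role were then −0.14 for cysteine cathepsins, −0.19 for other proteases, −0.03 for inhibitors and cofactors, −0.05 for lipid hydrolases and cholesterol carriers and −0.04 for phosphatases and nucleases. Without WT 4 the threshold was passed by 5 (Ctsa, Ctsb, Lgmn, Npc1 and Tpp1), while the genes called in all rose from 164 to 515. DESeq2 on the recovered reads called 9 of the 33 genes (Ctsa, Ctsb, Ctsl, Ctss, Lgmn, Lipa, Npc1 and Tpp1, which were lower, and Ppt1, which was higher), with 3.64% of all genes called. With edgeR (0.829% of all genes) and with sex as a covariate (0.538%) the called genes were again Tpp1 and Ctsa.

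**Figure D2:**
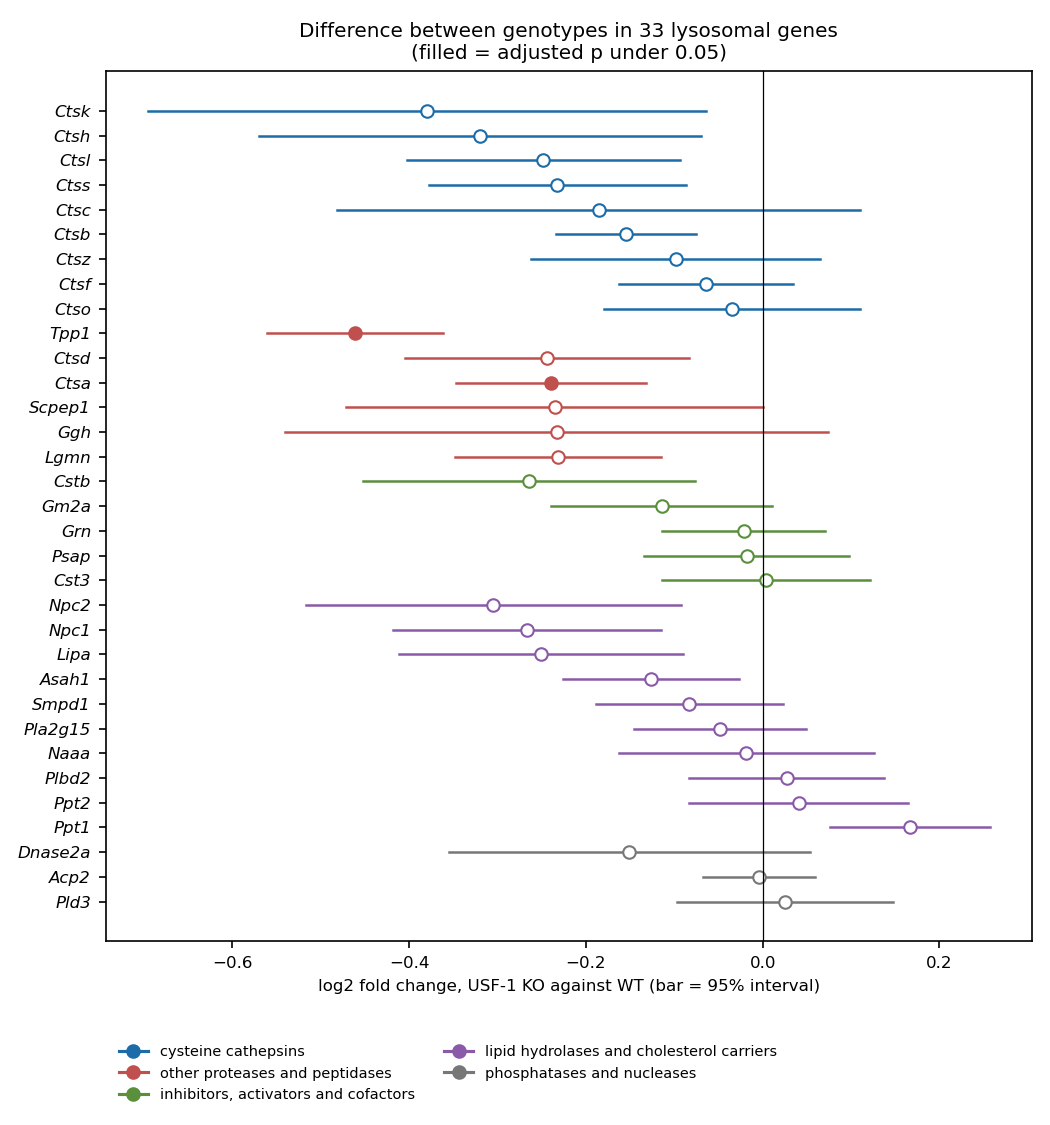
Log2 fold change between USF-1 KO and WT mice on the log2(normalised count + 1) scale for the 33 tested genes, ordered by role; bars are 95% intervals from limma and filled points have an adjusted p under 0.05. All 9 cysteine cathepsins (7 without WT 1 and WT 5) and all 6 other proteases lie below 0, and the filled points are Tpp1 at −0.46 and Ctsa at −0.24.

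Among the 6 other proteases and peptidases every gene was below 0, with a median log2 fold change of −0.24 and 2 genes past the threshold. Tpp1 (ENSMUSG00000030894, chr7:105744811-105752235, GRCm38) removes tripeptides from the N-terminus of proteins, and its loss causes a childhood form of neuronal ceroid lipofuscinosis. Its normalised counts in WT 1 to WT 6 were 1971, 1968, 1884, 2045, 2275 and 1842, and in KO 1 to KO 6 they were 1493, 1422, 1414, 1446, 1432 and 1477. The highest USF-1 KO mouse thus lay below the lowest WT mouse, and the USF-1 KO mice were close to each other. The means were 1998 ± 153 in WT and 1447 ± 31.5 in USF-1 KO mice (SD, n = 6 each), a log2 fold change of −0.46 (standard error, SE, 0.05, limma adjusted p = 0.000271). The difference was −0.43 on the log2 scale in females and −0.51 in males, where the 2 WT mice included WT 5, the highest mouse. Without WT 1 and WT 5 the log2 fold change was −0.42 (limma adjusted p = 0.000641), and Tpp1 passed the threshold under each of the 23 alternatives tried. No other gene shared exonic bases with Tpp1, and none of its exonic stretches of 75 bases occurred in another gene.

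Ctsa (ENSMUSG00000017760, chr2:164832873-164841032, GRCm38) trims peptides from the C-terminus and protects lysosomal neuraminidase and beta-galactosidase from degradation. WT 1 to WT 6 had 2552, 2544, 2359.6, 2307, 2733 and 2566 normalised counts and KO 1 to KO 6 had 2082, 2037, 2235, 1935, 2209 and 2262. The groups did not overlap, but the gap between WT 4 and KO 6 was narrow. The log2 fold change from 2510.3 ± 155 to 2127 ± 129 (SD, n = 6 each) was −0.24 (SE 0.05, limma adjusted p = 0.0415). It was −0.24 in females and −0.30 in males, where the 2 WT mice included WT 5, the highest mouse. The call did not hold without WT 1 and WT 5 (log2 fold change −0.20, limma adjusted p = 0.208). It was also lost when any 1 of WT 1, WT 2, WT 5, WT 6 or KO 1 to KO 5 was left out, and the alternatives gave adjusted p between 0.00119 (DESeq2) and 0.208. Ctsa shares 495 exonic bases with Pltp on the opposite strand, and whether the counting used strand was not given in the sources used here. Pltp had 1376 ± 517 normalised counts in WT and 1484 ± 165 in USF-1 KO mice (SD, n = 6 each), a log2 fold change of 0.17 (limma adjusted p = 0.721). Its highest mouse was WT 5, with 2375 normalised counts. Without WT 1 and WT 5 the log2 fold change of Pltp was 0.42 (limma adjusted p = 0.0969).

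Ctsd, the aspartic protease cathepsin D, was the third gene without overlap between the genotypes, which 1.08% of all tested genes showed in this direction. It had 4899, 4399, 4310.2, 4514, 6069.9 and 4277 normalised counts in WT 1 to WT 6 and 4048, 3698, 3857, 3998, 4005 and 4267 in KO 1 to KO 6. WT 5 stood far above the other WT mice, and KO 6 lay just below WT 6. The log2 fold change was −0.24 (SE 0.08, limma adjusted p = 0.155) and −0.14 without WT 1 and WT 5. Ctsd shares 808 exonic bases with Gm49369 on the same strand, which was listed at 0 in all mice, so that its count is uncertain there. Lgmn, the asparaginyl endopeptidase legumain that cleaves precursors of cathepsins, had 2614, 2545, 2156, 2391, 2353 and 2457 normalised counts in WT 1 to WT 6 and 2266, 1885, 1955, 2022, 2043 and 2187 in KO 1 to KO 6. KO 1 and KO 6 lay above the lowest WT mouse. Its log2 fold change was −0.23 (SE 0.05, limma adjusted p = 0.0704), and −0.21 without WT 1 and WT 5, and it passed the threshold when WT 3, WT 4 or KO 1 was left out. For Scpep1, a serine carboxypeptidase, the log2 fold change was −0.24 with a 95% interval of −0.47 to 0.00, and −0.19 without WT 1 and WT 5. For Ggh, the gamma-glutamyl hydrolase that shortens folate chains, it was −0.23 with an interval of −0.54 to 0.07. Ggh was the most variable of the tested genes among WT mice, with a coefficient of variation of 30.2%, as WT 5 had 421 normalised counts against 194 to 293 in the others. Without WT 1 and WT 5 its log2 fold change was −0.02.

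**Figure D3:**
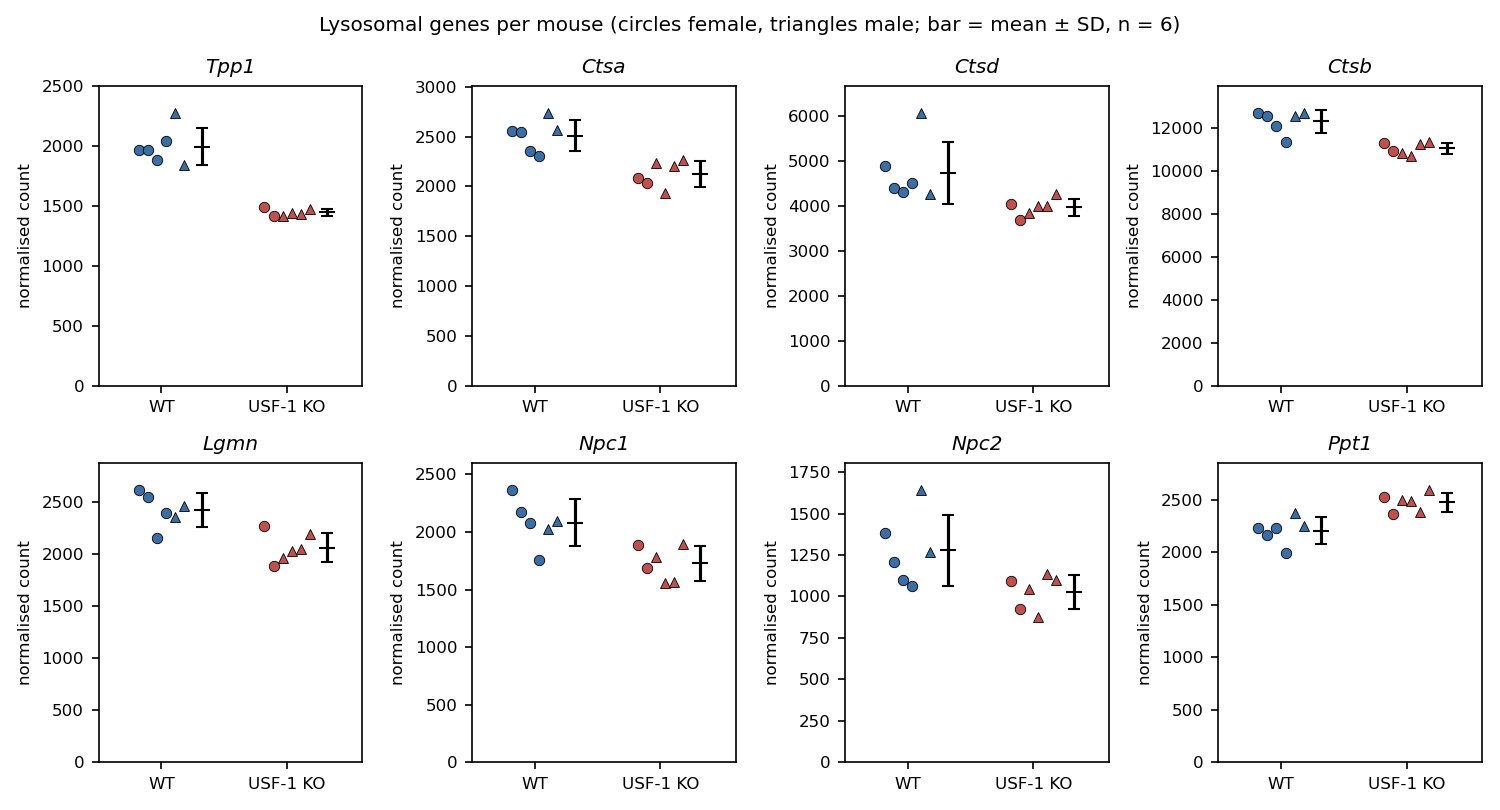
Normalised counts of 8 genes in each of the 6 WT and 6 USF-1 KO mice, with circles for females and triangles for males; the bars beside the points are the mean ± SD. For Tpp1, Ctsa and Ctsd all USF-1 KO mice lie below all WT mice, and for Ppt1 5 USF-1 KO mice lie above the highest WT mouse.

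The sequences around the starts of these genes are shown because USF-1 binds CACGTG. RefSeq (GRCm38.p6) promoter windows of 300 bases, from 250 before to 50 after the start, were at hand for 27 of the 34 genes, in 36 windows. CACGTG, which reads the same on both strands, was found in windows of 5 genes (18.5% of the 27), namely Ctsa, Ctsd, Ctsf, Ctsl and Lgmn, against 11.2% of the 12147 tested genes with a window and 7.15% of all 32851 windows. The longer palindrome TCACGTGA, which contains CACGTG, was found for 2 genes, Ctsa and Ctsd, against 1.97% of tested genes and 0.974% of all windows. The looser pattern CANNTG, which includes both, was found for 23 of the 27 genes, against 68.2% of tested genes. The sites are given 5′ to 3′ on the strand of the gene with the motif in capitals, and positions count from the RefSeq start at 1, with the base before it at −1.
Ctsa at −13, chr2:164833749-164833778 (forward strand): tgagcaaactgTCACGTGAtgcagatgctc
Ctsa at 5, chr2:164833766-164833795 (forward strand): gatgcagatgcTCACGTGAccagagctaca
Ctsd at −99, chr7:142387908-142387937 (reverse strand): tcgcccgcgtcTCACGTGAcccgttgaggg
Ctsd at −245, chr7:142388055-142388077 (reverse strand): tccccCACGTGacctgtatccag
Ctsf at −79, chr19:4855074-4855103 (forward strand): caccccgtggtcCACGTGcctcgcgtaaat
Ctsl at −236, chr13:64370739-64370768 (reverse strand): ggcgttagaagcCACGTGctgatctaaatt
Lgmn at −49, chr12:102439124-102439153 (reverse strand): tggaatgtctgtCACGTGgtccattttata
The start used for both Ctsa sites lies inside the gene, downstream of a further RefSeq start whose window held no CACGTG. For Lgmn the start used lies outside its annotated exons. The window of its other RefSeq start, which lies in an annotated exon, held no CACGTG. The window of Tpp1 held no CACGTG. Its 120 bases before the start, chr7:105752236-105752355 on the reverse strand, are shown because Tpp1 had the lowest adjusted p, with the single CANNTG match in capitals.
Tpp1: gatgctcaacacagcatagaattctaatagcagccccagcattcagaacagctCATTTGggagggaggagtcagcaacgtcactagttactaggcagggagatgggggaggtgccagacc
Of the 5 genes with CACGTG, Ctsa was past the threshold, and the log2 fold changes were −0.24 for Ctsa, −0.24 for Ctsd, −0.06 for Ctsf, −0.25 for Ctsl and −0.23 for Lgmn. Those of the tested genes with a window but no CACGTG ran from −0.46 for Tpp1 to 0.17 for Ppt1. A match is a description of these letters in these windows and says nothing of binding in the hippocampus.

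All 9 cysteine cathepsins, the papain-like proteases of the lysosome, had log2 fold changes below 0, with a median of −0.19, but none passed the threshold, and without WT 1 and WT 5 it was 7 of 9. At an unadjusted p under 0.05 there were 5 (Ctsb, Ctsh, Ctsk, Ctsl and Ctss), edgeR called 0 and DESeq2 called 3 (Ctsb, Ctsl and Ctss). Ctsb, a broad endo- and exopeptidase and the most abundant of them, had 12699, 12592, 12084, 11349, 12562 and 12696 normalised counts in WT 1 to WT 6. In KO 1 to KO 6 the counts were 11302, 10955, 10860.5, 10724, 11247 and 11349.9. A single USF-1 KO mouse, KO 6, overlapped with the WT mice, just above WT 4. The log2 fold change of −0.15 was small but its error was too (SE 0.04, limma adjusted p = 0.0734), and it passed the threshold when WT 4 was left out (limma adjusted p = 0.0086). Ctsb shares 774 exonic bases with Fdft1 on the opposite strand, which had a log2 fold change of −0.04 (limma adjusted p = 0.873).

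Ctsl, an endopeptidase that degrades proteins and processes other precursors, had 1646, 1588, 1444, 1411, 1929 and 1562 normalised counts in WT 1 to WT 6 against 1462, 1201, 1393, 1242, 1356 and 1386 in KO 1 to KO 6. WT 5 was the highest mouse, and KO 1 lay above WT 3 and WT 4. Its log2 fold change was −0.25 (limma adjusted p = 0.129) and −0.17 without WT 1 and WT 5, and 24.6% of its exonic 75-base stretches also occur in other genes, so that its count is uncertain. Ctss, an elastin-degrading cathepsin of microglia and antigen-presenting cells, had 1270.2, 1189, 1269, 1423, 1060.5 and 1273 normalised counts in WT 1 to WT 6 and 1036, 1078, 1176, 961, 984 and 1129 in KO 1 to KO 6. It was lowest in WT 5 among the WT mice, and its log2 fold change of −0.23 (limma adjusted p = 0.133) was −0.28 without WT 1 and WT 5.

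Ctsh, an aminopeptidase, had 226, 219, 205, 179, 256 and 154 normalised counts in WT 1 to WT 6 and 197, 143, 167, 161, 147 and 169 in KO 1 to KO 6. WT 6 lay below 4 of the USF-1 KO mice, and the log2 fold change was −0.32 (SE 0.12, limma adjusted p = 0.235). Ctsk, the collagenolytic cathepsin of osteoclasts, was low in the hippocampus, with 54.1, 57.2, 35.1, 47.7, 53.1 and 59.5 normalised counts in WT 1 to WT 6 and 41.5, 32.5, 48.0, 32.8, 39.2 and 39.1 in KO 1 to KO 6. WT 3 was among the lowest of all mice, and the log2 fold change of −0.38 had a wide 95% interval of −0.70 to −0.06 (limma adjusted p = 0.265). The remaining cysteine cathepsins had smaller differences or larger errors. Ctsc, the dipeptidyl peptidase that activates granule proteases, had a log2 fold change of −0.19 with an interval of −0.48 to 0.11, and 0.01 without WT 1 and WT 5. The values were −0.10 (−0.26 to 0.07) for the carboxypeptidase Ctsz, −0.06 (−0.16 to 0.03) for Ctsf and −0.03 (−0.18 to 0.11) for Ctso. They were −0.04, −0.04 and 0.03 without WT 1 and WT 5.

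Of the 5 inhibitors, activators and cofactors none passed the threshold, and 4 lay below 0, with a median log2 fold change of −0.02. At an unadjusted p under 0.05 there was 1, Cstb, and edgeR and DESeq2 called 0. Cstb encodes cystatin B, an intracellular inhibitor of cysteine cathepsins whose loss causes progressive myoclonus epilepsy. It had 255, 280.0, 253, 222, 324 and 285 normalised counts in WT 1 to WT 6 and 241, 205, 223, 201, 225 and 245 in KO 1 to KO 6, with 4 USF-1 KO mice above WT 4, the lowest WT mouse, and 2 below it. The log2 fold change was −0.26 (SE 0.09, limma adjusted p = 0.19). The secreted inhibitor Cst3 had 19059 ± 857 normalised counts in WT and 19139 ± 1563 in USF-1 KO mice (SD, n = 6 each), a log2 fold change of 0.00 with a 95% interval of −0.11 to 0.12. For Grn, the progranulin gene, whose product is cleaved into granulins in lysosomes, it was −0.02 (−0.11 to 0.07), and for Psap −0.02 (−0.13 to 0.10). The sign of these 3 differences changed under some alternatives. They came to −0.03 for Cst3, −0.04 for Grn and 0.04 for Psap without WT 1 and WT 5. Gm2a, the activator that lifts gangliosides to hexosaminidase A, had a log2 fold change of −0.11 (−0.24 to 0.01), which was −0.03 without WT 5 and WT 1, its highest mice.

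The 10 lipid hydrolases and cholesterol carriers were mixed, with 7 below and 3 above 0, a median log2 fold change of −0.07 and no gene past the threshold. At an unadjusted p under 0.05 there were 5 (Npc1, Npc2, Lipa and Asah1 lower, Ppt1 higher), edgeR called 0 and DESeq2 called 3. The genes of cholesterol release and export (Npc1, Npc2 and Lipa) lay below 0, a sign shared by 28 of all 33 tested genes. Npc1, the membrane protein that passes cholesterol out of the lysosome, had 2366, 2173, 2079.8, 1754, 2025 and 2094 normalised counts in WT 1 to WT 6 and 1889.5, 1685, 1784, 1554, 1567 and 1898 in KO 1 to KO 6. The ranges overlapped at WT 4, and the log2 fold change was −0.27 (SE 0.07, limma adjusted p = 0.105). Without WT 4 its adjusted p was 0.0155 (limma), while without WT 1 and WT 5 it was 0.337 (log2 fold change −0.23). Npc1 shares 511 exonic bases with Rmc1 on the opposite strand, which had 674 normalised counts on average. Npc2, the soluble carrier that hands cholesterol to Npc1, had 1381, 1209, 1102, 1064, 1643 and 1271 normalised counts in WT 1 to WT 6 and 1094, 922, 1042, 878, 1134 and 1099 in KO 1 to KO 6. WT 5 and WT 1 were its highest mice. The log2 fold change of −0.30 (SE 0.10, limma adjusted p = 0.177) was −0.18 without them.

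Lipa, the acid lipase that hydrolyses cholesteryl esters and triglycerides, had 578, 497, 472, 444, 562 and 425 normalised counts in WT 1 to WT 6 and 428, 399, 421, 411, 439.7 and 388 in KO 1 to KO 6. It too was highest in WT 1 and WT 5, and its log2 fold change was −0.25 (limma adjusted p = 0.14) and −0.15 without both. Asah1, the acid ceramidase, had 1123, 1086, 1042, 1180.2, 1073 and 1033 normalised counts in WT 1 to WT 6 and 1046, 966, 1032, 921, 967 and 1058 in KO 1 to KO 6. Its log2 fold change of −0.13 (limma adjusted p = 0.238) was the smallest in size among the 15 genes with an unadjusted p under 0.05.

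Ppt1, which removes palmitate from proteins and whose loss causes the infantile form of neuronal ceroid lipofuscinosis, was the gene with the highest log2 fold change. It had 2235, 2162, 2232, 1995, 2373 and 2247 normalised counts in WT 1 to WT 6 and 2531, 2362, 2494, 2492, 2379.9 and 2595 in KO 1 to KO 6. Of the USF-1 KO mice 5 lay above every WT mouse, and only KO 2 lay just below WT 5. The log2 fold change was 0.17 (SE 0.04, limma adjusted p = 0.0875) and 0.20 without WT 1 and WT 5. Ppt1 shares 129 exonic bases with Cap1 on the opposite strand, which had a log2 fold change of 0.03 (limma adjusted p = 0.896). Its relative Ppt2, also a thioesterase, had a log2 fold change of 0.04 (−0.08 to 0.16), although 957 of its exonic bases also belong to Gm20460 on the same strand. The values were −0.08 (−0.19 to 0.02) for the acid sphingomyelinase Smpd1, −0.05 (−0.15 to 0.05) for the phospholipase Pla2g15, −0.02 (−0.16 to 0.13) for the amidase Naaa and 0.03 (−0.08 to 0.14) for Plbd2. When WT 1 and WT 5 were left out they were 0.07 for Ppt2, −0.04 for Smpd1, −0.07 for Pla2g15, −0.02 for Naaa and 0.01 for Plbd2.

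The 3 tested phosphatases and nucleases had a median log2 fold change of −0.00, and none passed the threshold; none had an unadjusted p under 0.05, and edgeR and DESeq2 called 0. Acp2, the lysosomal acid phosphatase, was the least variable of the tested genes among WT mice (coefficient of variation 1.98%) and gave 2418 ± 47.8 normalised counts in WT and 2412 ± 58.5 in USF-1 KO mice (SD, n = 6 each). Its log2 fold change was −0.00 with the narrow 95% interval of −0.07 to 0.06. For Pld3 it was 0.03 (−0.10 to 0.15) and for the acid DNase Dnase2a −0.15 (−0.35 to 0.05). The 10 mice without WT 1 and WT 5 gave −0.00 for Acp2, −0.04 for Pld3 and −0.12 for Dnase2a. A large part of the exons of Dnase2a, 1616 bases, overlaps the opposite-strand gene Mast1, which had 3433 normalised counts on average against 73.3 for Dnase2a. Acp2 shares 652 exonic bases with Ddb2 on the opposite strand, which had 341 normalised counts on average.

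Across the 33 genes the coefficient of variation among WT mice had a median of 8.63%, against 10.3% over all tested genes and 7.05% over those with a mean above 200 normalised counts. WT 5 was the highest of the 12 mice for 14 of the 33 genes (42.4%, against 11.3% of all tested genes). WT 4 was the highest for 7 (21.2%, against 16.2% of all tested genes) and WT 1 for 4 (12.1%, against 7.40%). KO 2 was the lowest for 10 (30.3%, against 10.9% of all tested genes) and KO 4 for 8 (24.2%, against 11.6%). The difference had the same sign in both sexes for 29 genes, lower for 26 and higher for 3. Over all tested genes 29.5% were lower in both sexes. The shares of all tested genes higher in both sexes, or of the same sign, were not taken. A sex by genotype interaction passed the threshold for 0 of the 33 genes (limma), and 0 had an unadjusted p under 0.05, with 0% and 3.45% over all tested genes.

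**Figure D4:**
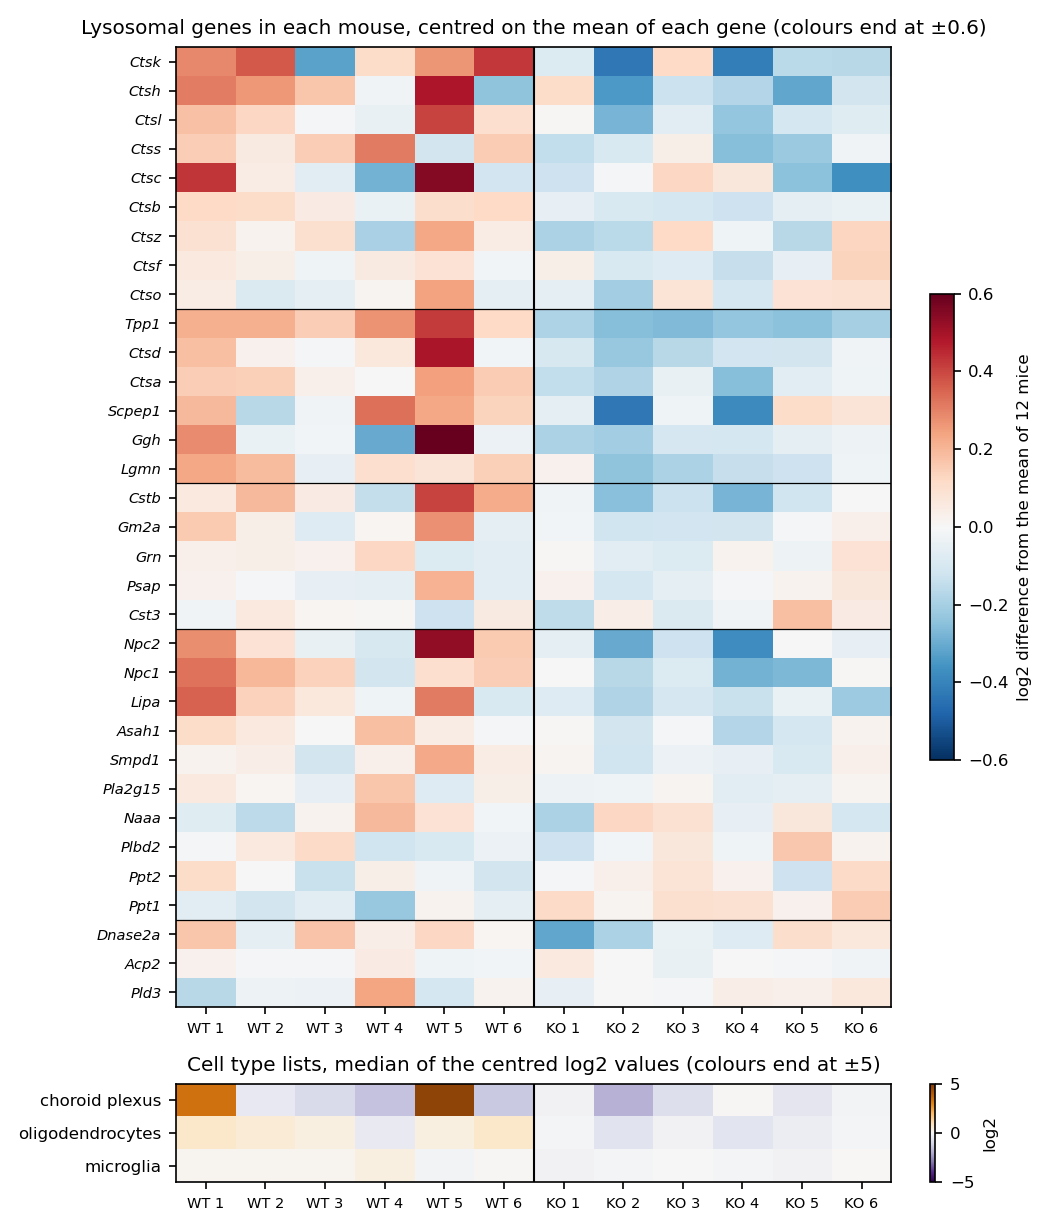
Log2(normalised count + 1) of the 33 tested genes in each mouse, centred on each gene's mean over 12 mice, in the order of the roles above, and below it the median of the centred values of 3 cell type lists. WT 5, in which the choroid plexus list is highest, is the highest mouse for 14 genes, while Tpp1 is red in all 6 WT mice and blue in all 6 USF-1 KO mice; values beyond the ends of the colour bar take its end colour.

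Markers of several cell types also differed between the genotypes in their medians, and their part in the differences of the lysosomal genes was not tested. Of the 12 microglia markers 12 lay below 0, with a median log2 fold change of −0.19 (−0.26 without WT 1 and WT 5). None passed the threshold in limma, edgeR or DESeq2 and 7 had an unadjusted p under 0.05 (limma), and their sums were 7879.8 to 10873 normalised counts in WT mice and 7493 to 8474 in USF-1 KO mice. Of the 8 oligodendrocyte markers 8 lay below 0 with a median of −0.70 (−0.62 without WT 1 and WT 5). Of them 1 (Ugt8a) was past the threshold with all 12 mice and 0 without WT 1 and WT 5, and all 8 with DESeq2. The sums were 85560.3 to 185151 normalised counts in WT mice and 73543 to 112453 in USF-1 KO mice. The lowest WT sum was that of WT 4 and lay inside the USF-1 KO range, while the other WT mice had 142979 to 185151. WT 4 also had the highest microglia sum, 10873. The 9 choroid plexus markers all lay below 0 with a median of −1.18, which became 0.67 without WT 1 and WT 5. None passed the threshold or had an unadjusted p under 0.05 in limma, edgeR called 0 and DESeq2 called 4 (Ttr, Kcnj13, Prlr and Aqp1, named after their values were seen), the sums being 928 to 165904 normalised counts in WT mice and 1059 to 2866 in USF-1 KO mice. For border macrophages 5 of 5 tested markers lay below 0 (median −0.39, 79.7 to 211 normalised counts in WT mice and 56.0 to 223 in USF-1 KO mice), and 4 of 5 without WT 1 and WT 5 (median −0.20). For meningeal fibroblasts it was 5 of 6 (median −0.36, 695 to 2135 normalised counts in WT mice and 608 to 2237 in USF-1 KO mice), but 3 of 6 with a median of 0.09 without WT 1 and WT 5. Markers of astrocytes, inhibitory neurons and endothelium had medians of −0.02, −0.03 and 0.04, with sums of 91088 to 121025 normalised counts in WT mice and 97521 to 108279 in USF-1 KO mice, 16708 to 19514 normalised counts in WT mice and 15556 to 18517 in USF-1 KO mice, and 2808 to 3652 normalised counts in WT mice and 2913 to 3559 in USF-1 KO mice, respectively. Their medians were −0.07, −0.06 and 0.12 without WT 1 and WT 5, with 7 of 8 astrocyte markers below 0. The astrocyte marker S100b, named after its value was seen, had an unadjusted p under 0.05 in limma and was lower with DESeq2. Excitatory neuron markers were above 0 for 5 of 6 (median 0.12, 142824 to 187856 normalised counts in WT mice and 137768 to 203428 in USF-1 KO mice), whereas 2 of 6 lay below 0 without WT 1 and WT 5 (median 0.06). No marker of any list was at 0 in all mice.

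The other lysosomal lists give the setting of these values. Among 22 glycosidases and sulfatases 17 lay below 0 with a median of −0.19, and 6 were lower past the threshold: Gaa (log2 fold change −0.63), Sgsh (−0.80), Manba (−0.50), Idua (−0.42), Hexa (−0.41) and Arsa (−0.30), where the limma adjusted p lay between 4.51e-05 for Gaa and 0.0456 for Manba. Without WT 1 and WT 5 the call was kept by 5 of the 6, not by Manba, and the median of the list was −0.11. None of the 19 lysosomal membrane proteins and V-ATPase subunits passed it in limma or edgeR, 3 passed in DESeq2 (Cln3 and Laptm4b lower, Atp6v1a higher, named after their values were seen), 3 lower and 4 higher genes had an unadjusted p under 0.05 in limma, and their median was −0.00 with 10 below and 9 above 0 (0.01 without WT 1 and WT 5). Of the 6 genes of enzyme delivery 1 was lower, Igf2r, the receptor that sorts enzymes tagged with mannose 6-phosphate, with 1324 ± 114 normalised counts in WT and 891 ± 55.7 in USF-1 KO mice (SD, n = 6 each) and a log2 fold change of −0.57 (limma adjusted p = 0.000311), −0.53 without WT 1 and WT 5. Of the transcription factors that can bind the same E-box, Usf2 had a log2 fold change of 0.06, Tfeb −0.25, Tfe3 0.01 and Mitf −0.47, with limma adjusted p of 0.468, 0.257, 0.943 and 0.308. Mitf was highest in WT 5 (442 normalised counts) and WT 1 (338), and without them the values were 0.04 for Usf2, −0.21 for Tfeb, 0.01 for Tfe3 and −0.17 for Mitf.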

How the data were processed

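RNA was sequenced from the hippocampus of 12 mice. According to the methods and the submitters' processing notes, libraries were made with the NEBNext Ultra II kit, and the authors aligned reads with STAR 2.5.0a to mm10 and normalised with DESeq2, and edgeR 3.22.2 is also named; the counter, annotation and strandedness are not given in the sources used here. The deposited values are a signal: the authors divided read counts by library size factors. In every library 100% of values were whole multiples of a step (tolerance 0.001), so that reads could be recovered; no pair of libraries was a repeat (lowest chi-square per degree of freedom 4.25).

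Members and lists were chosen with earlier results of these data known, and the result of 1 gene is not reported here. The genotypes were compared with limma 3.58.1 (R 4.3.3) on log2(normalised count + 1) with a trend, genotype only, over genes whose mean reached 10, and p-values were adjusted by Benjamini-Hochberg and called under 0.05. Every mouse is given for genes past the threshold or with an unadjusted p under 0.05, the others by means and intervals. Replicates are separate mice. Fold changes understate those of low genes. Alternatives were edgeR 4.0.16 and DESeq2 1.42.0 on the recovered reads, and those of the closing section. On simulated counts limma recovered 170 of 200 genes changed 2-fold and 136 of 200 changed 1.5-fold (18181 and 18176 genes), with 8 and 6 other genes called. The log2 fold changes of the tested genes here, −0.46 to 0.17, were smaller in size. Changes of that size were not simulated, so their recovery is not known. Exon lengths and overlaps came from GENCODE M21, which held 55141 of the 55487 gene identifiers. Plots used matplotlib 3.10.9.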

Additional observations from a re-analysis of the deposited data

Results flagged for a closer look

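In 4 of the 68 groups of 6 mice (34 genes in each genotype), 1 mouse stood apart from the rest by Dixon's test at the 95% level, where chance gives about 1 in 20, or 3.4. All 4 were values of WT 5, with 6069.9 normalised counts of Ctsd, 807 of Ctso, 46531 of Psap and 20.2 of Acp5, each above the other 5 WT mice. WT 5 is also the library with the highest choroid plexus markers, and the part of these in the 4 values was not tested.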

How the results depend on the processing

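Settings tried were pseudocounts of 0.5 and 5, a minimum mean of 50 or none, equal library totals, quantile normalisation, sex as a further term, limma with no trend, edgeR, DESeq2, 0.1 as the threshold and each mouse left out. Leaving out WT 1 and WT 5 together was added after seeing the data. Of the genes past the threshold, Tpp1 passed in 23 of 23 fits and Ctsa in 9. Against 2 genes, 1 passed with no limit on the mean, equal totals, quantile normalisation, limma without the trend and without WT 1 and WT 5, 9 with DESeq2 and 5 at 0.1. With each mouse left out the number was 1 to 5, the 5 being without WT 4 (Ctsa, Ctsb, Lgmn, Npc1 and Tpp1). Over all genes 164 passed, against 98 with sex, 109 without the trend, 611 with DESeq2, 343 at 0.1, 59 without WT 1 and WT 5, and 64 (without WT 1) to 515 (without WT 4) with each mouse left out. The median log2 fold change was −0.066 without WT 1 and WT 5. Of 758 comparisons of single genes 704 kept direction and call, 14 lost the call (all Ctsa), 12 gained it and 28 changed sign, in 9 genes. Quantile normalisation gave −0.055 for Cst3 and −0.0094 for Pld3, and sex as a covariate −0.0032 for Cst3 and 0.0094 for Acp2. Without WT 1 and WT 5 the values were 0.012 for Ctsc, 0.029 for Ctso, −0.032 for Cst3, 0.036 for Psap and −0.036 for Pld3. With each mouse left out the ranges were −0.056 to 0.011 for Ctso, −0.033 to 0.034 for Cst3, −0.041 to 0.0012 for Grn, −0.033 to 0.022 for Psap, −0.052 to 0.019 for Naaa, −0.0018 to 0.055 for Plbd2, −0.016 to 0.0056 for Acp2 and −0.0049 to 0.075 for Pld3. The causes of these changes were not tested. No paired analysis was possible because the labels give the mice no shared replicate numbers. Depth limited Acp5, at a mean under 10 normalised counts.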
